A study of Mus musculus with 15 samples.

Results

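This comparison sets chromatin accessibility in Ikaros-deficient macrophages against control macrophages after 3 h of lipopolysaccharide (LPS), a bacterial cell wall product sensed by Toll-like receptor 4. Its members were chosen by their labels: all 5 of the 15 DNase-seq libraries that were taken at 3 h. Cells were macrophages grown from bone marrow, from mice of the C57BL/6J strain, and received 10 ng/ml LPS. They comprise 2 libraries labelled Ikzf KO, 2 wild-type (WT) libraries and 1 littermate control library. By their titles the KO libraries, WT replicate 1 and the littermate library received 80 U of DNase, and WT replicate 2 received 100 U. The sources used here do not give the targeted allele, the littermates' genotype or the number of animals behind a library. The labels do not say whether replicates are separate animals or cultures, and the tests therefore reflect a spread that may be technical.

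Ikaros, encoded by Ikzf1, is a zinc finger protein that binds DNA and recruits chromatin remodelling and histone deacetylase complexes. It is best known as a regulator of lymphocyte development and is also present in myeloid cells. In macrophages LPS activates NF-kB, AP-1 and interferon regulatory factors, which act at enhancers and promoters of inflammatory genes, many of them kept accessible beforehand by lineage factors such as PU.1. DNase I cuts accessible chromatin more readily than chromatin packed in nucleosomes, and a stretch of dense cutting is called a hotspot.

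Each library has its own list of hotspots, with positions in the mouse build mm9 and a highest tag density per hotspot. The lists differ in length and in strength, so they were compared by rank. Only chromosomes 1 to 19 were used. Each list was cut to the 15042 hotspots with the highest density, the length of the shortest list, and rank 1 is the densest hotspot of a library. Hotspots of the 5 lists that shared at least 1 bp were merged into 21462 union regions. A KO-only region is one found in both KO lists and in no control list, and a control-only region is found in all 3 control lists and in no KO list. No annotation of build mm9 was used here, so regions are given by position without gene names, and the targeted gene itself was not analysed here.

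The KO libraries stood apart from the controls as libraries. The deposited lists held 120589 and 116803 hotspots in KO, 15659 and 20077 in WT and 52400 in the littermate. Within the equally long lists the median of the highest density was 25.7 and 25.3 in KO, against 8.77 and 11.5 in WT and 9.03 in the littermate. The hotspots in these lists had a median width of 1795 and 1662 bp in KO and of 635, 717 and 837 bp in the controls. The last hotspot kept had a density of 16.8 and 16.1 in KO, 1.25 and 7.15 in WT and 6.32 in the littermate, and the first one dropped had the same density as the last one kept in the 4 libraries that were cut. For list length, median density and median width the groups did not overlap, with an exact two-sided permutation p of 0.1 each, the smallest that 2 against 3 libraries allow. WT replicate 1 supplied the shortest list and was used whole. These properties run along genotype at 3 h, and their part in the results below cannot be told apart from it. Fewer accessible cells and less cutting per cell cannot be told apart in bulk libraries either.

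KO-only regions outnumbered control-only regions, and most strong regions were common to both genotypes. There were 1615 KO-only regions (7.52% of all union regions) and 630 control-only regions (2.94%). The largest class was formed by 8636 regions present in all 5 lists (40.2%). Another 3233 regions were in 1 control list alone and 1343 in 1 KO list alone. The littermate was the only list for 1466 of the former, and 527 regions were shared by the KO and littermate lists while absent from both WT lists. The following percentages are of the union regions of each setting. With every hotspot set to 600 bp, an alternative chosen after seeing the data, there were 2128 KO-only (8.94%) and 1502 control-only regions (6.31%). Leaving out WT replicate 1 also lengthened every list to 19384 hotspots, and the counts were 2725 (10.3%) and 1209 (4.57%). KO-only and control-only regions numbered 2142 (10.7%) and 1044 (5.21%) without the littermate, and 2069 (9.96%) and 1058 (5.09%) without WT replicate 2. Without KO replicate 2 they numbered 2384 (11.4%) and 964 (4.60%). With the littermate as the only control and lists of 50187 hotspots, they numbered 18320 (25.5%) and 17815 (24.8%). A KO-only region is in 2 lists and missing from 3, and a control-only region the reverse, so the counts are not like for like. These counts have no test, because 2 against 3 libraries cannot give a p below 0.1 and regions are not replicates.

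**Figure D1:**
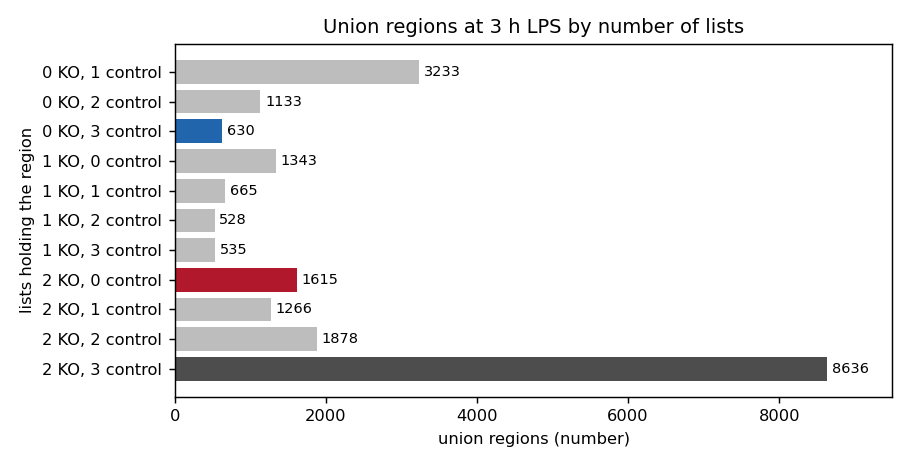
Bars give the number of union regions (horizontal axis) by how many of the 2 KO lists and 3 control lists hold them (vertical axis), with KO-only regions in red, control-only regions in blue and regions in all lists in dark grey. The class in all 5 lists holds 8636 regions, KO-only 1615 and control-only 630.

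Regions on one side alone were mostly weak ones. Regions present in both KO lists were divided into quintiles by mean rank. In the strongest quintile 1.01% were in no control list, and this share was 4.70%, 8.77%, 16.2% and 29.6% in the following quintiles. Regions in every control list were missing from both KO lists in 1.63%, 1.58%, 3.01%, 7.81% and 18.1% of cases from the strongest to the weakest quintile. A region near the end of a list of fixed length can leave it with a small change of density, so these shares rise towards the weak end partly by construction. Of the KO-only regions 124 (7.68%) had a mean rank in the strongest tertile of the KO lists, and 74 control-only regions (11.7%) were in the strongest tertile of the control lists.

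**Figure D2:**
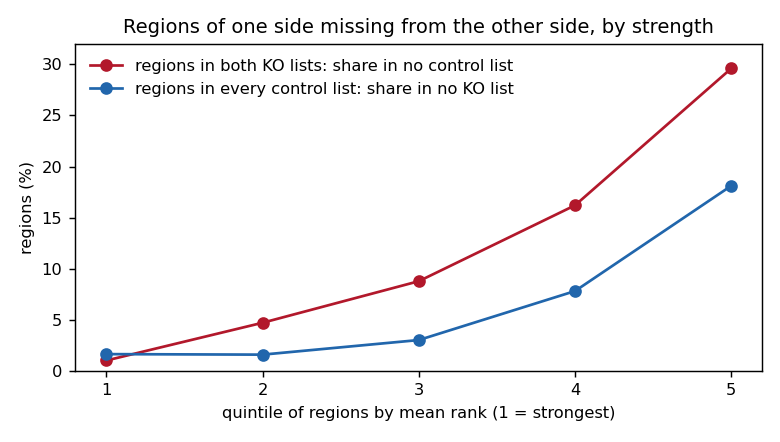
The horizontal axis gives quintiles of regions by mean rank, from strongest to weakest, and the vertical axis the percentage of them found in no list of the other side, for regions in both KO lists (red) and in every control list (blue). Both shares are under 2% in the strongest quintile and reach 29.6% and 18.1% in the weakest.

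Absence from a cut list often meant a lower rank in the deposited list. Of the KO-only regions 916 (56.7%) were in the littermate list as deposited, at a median rank of 23120 of 50187, against median ranks of 10569 and 10799 in KO. WT replicate 2 listed 222 of them (13.7%), and WT replicate 1, whose list was not cut, listed 0. In no deposited control list at 3 h were 665 (41.2%), and in no control list at any of the 3 times 103 (6.38%). Among all union regions, 91.1% were in the deposited littermate list and 79.9% in a deposited WT list at 3 h. Those in no deposited control list were 5.74% at 3 h and 0.885% over all times. Of the control-only regions 594 (94.3%) were in both deposited KO lists, at median ranks of 22976 and 22052, and 24 (3.81%) were in neither. Among all union regions 98.3% were in both and 1.03% in neither, so the deposited KO lists held nearly every region. The classes leave out regions in the cut lists of the other side, which the union does not. The lowest Z-score was 3.54 and 3.58 in the KO lists and 10.6, 9.37 and 4.54 in the control lists, so these shares cannot be compared between the classes.

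Tag density itself gave another picture than rank. The authors' scaling of density between libraries is not stated. On the deposited scale KO libraries were higher at the shared regions by a median of 1.44 on the log2 scale, and 99.4% of these regions had a higher mean log2 density in KO. Among the 594 control-only regions listed in all 5 libraries, 424 (71.4%) still had the higher density in KO, by a median of 0.49. Measured against the shift of 1.44 they were lower in KO, and on the deposited scale most were higher. The class was chosen by these same densities, so a difference below 1.44 follows partly by construction. In the 916 KO-only regions that the littermate listed, the median log2 difference was 2.12, and KO was higher in each by construction, since the lowest density kept in KO was above the lowest kept in the littermate.

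The 10 KO-only regions with the best mean ranks lay on 9 chromosomes and ranked between 480 and 1729 in the KO lists. The first was chr5:125706331-125707624, at ranks 489 and 480 with densities of 78.6 and 82.1 in KO replicates 1 and 2. It was in neither WT list at 3 h and in the littermate list at rank 42130 with a density of 3.16. KO replicate 1 ranked it 1074 before LPS and 304 at 8 h, and KO replicate 2 ranked it 745 and 403. Of the 9 control libraries 2 listed it at all, WT replicate 1 at 0 h and the littermate at 3 h. It was thus among the strongest hotspots of KO at every time, while its best rank in any control library was 13127, in WT replicate 1 at 0 h.

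The second, chr6:54604522-54607342, had densities of 58.2 and 73.2 in KO and of 3.61 in the littermate, and was in neither WT list. Its rank in KO went from 2408 and 3012 before LPS to 1234 and 724 at 3 h, then to 566 and 484 by 8 h. In KO this region climbed at each time, while the only control library to list it at 8 h, the littermate, had it at rank 38598. The region chr7:91404526-91406411 was in no deposited control list at 0 h or 3 h. Its KO densities at 3 h were 55.1 and 68.3, and KO ranks moved from 5128 and 4070 at 0 h to 1395 and 878 at 3 h.

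A group within these 10 had low ranks in KO before LPS and high ranks at 3 h. The region chr11:117810116-117811776 had KO ranks of 30781 and 25841 before LPS, then 1287 and 1535 at 3 h, then 7344 and 8898 by 8 h. In the controls it was in no list at 0 h, in the littermate list alone at 3 h (rank 21320), and at ranks 13750, 14617 and 28762 at 8 h. Its rank in KO was thus best at 3 h. The region chr10:59405384-59407102 had KO ranks of 20588 and 18701, then 1249 and 1473, then 941 and 1424 at the 3 times. The region chr2:69964475-69968617 behaved alike, with KO ranks of 14381 and 18201, then 1387 and 1454, then 1773 and 1700. At 8 h all 3 control libraries listed both of these regions, at ranks from 21705 to 28337. At 3 h WT replicate 2 listed chr2:69964475-69968617 at rank 15380, past the end of its cut list. Its density there, 7.15, was also that of the last hotspot kept, so only the order of ties left it out. Without WT replicate 1, with lists of 19384 hotspots, it was no longer KO-only. These 3 regions were picked out of the 10 after their values were seen.

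The remaining 4 ranked between 169 and 3537 in KO at all times. The region chr2:129088398-129090467 was at ranks 917 and 1067 in KO at 3 h and at 15708, just past the end of the cut list, in the littermate. The region chr19:34336452-34337896 was in all 3 control lists at 0 h at ranks 10474 to 16468, and only in the littermate list at 3 h, at rank 32976, while KO replicate 1 ranked it 996 before LPS and 1161 at 3 h, and KO replicate 2 ranked it 1362 and 825. The region chr9:120835733-120837087 had KO ranks of 1482 and 960 and a littermate rank of 20821. For chr8:114182211-114183730 the KO ranks were 1729 and 959, and the littermate rank was 32152 at 3 h but 3217 at 0 h, so the littermate had this region among its stronger hotspots before LPS, as did WT replicate 2 at rank 4343, while WT replicate 1 did not list it.

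Distances between regions are given as a description. Within 50 kb of another KO-only region lay 32.1% of KO-only regions, against 20.1% of all union regions. Within 50 kb of another control-only region lay 24.6% of control-only regions, against 7.61% of all union regions. There were 62 runs of at least 3 KO-only regions with gaps of at most 50 kb, and the largest held 6. Control-only regions, a smaller class, formed 15 such runs, the largest of 7. Runs were not counted for other sets of regions, so these numbers alone do not show clustering. One of the KO-only runs, chr6:125420854-125460962, contained 6 union regions in 40.1 kb, all of them KO-only. Another, chr9:120735006-120837087, also held 6 union regions, all KO-only, and ends with the region at 120835733 described above. These 2 runs were picked out after the counts were seen. KO-only regions had a median width of 1443 bp, against 831 bp for control-only regions and 2115 bp for regions in all 5 lists. Widths followed those of the libraries that define a class and are not a property of the region alone. The share of union regions that were KO-only ranged from 5.60% on chromosome 17 to 8.88% on chromosome 15.

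The strongest control-only regions ranked among the very best hotspots of every control library. The first, chr17:13743197-13746205, had densities of 48.1 and 46.9 in WT and 47.0 in the littermate (ranks 69, 172 and 50), and of 14.0 and 15.2 in KO (ranks 19127 and 16371). All controls were high and close to each other, and both KO libraries were low on both scales. The region was no longer control-only without WT replicate 1, with lists of 19384 hotspots, or with lists ranked by Z-score. The region chr11:3030687-3031239 had densities of 46.6, 43.3 and 36.6 in the controls and was in neither deposited KO list at 3 h, although both KO lists held it at 0 h at ranks 6504 and 7303. Next to it, chr11:3031271-3036083 was in the equally long lists of all 15 libraries, those of KO at 3 h included. The part of hotspot boundaries in this absence was not tested. For chr6:29697610-29699292 the control densities were 39.3, 40.1 and 41.1, and those in KO 7.56 and 10.3. The region chr5:80242208-80244040 had 44.1, 38.5 and 37.0 in the controls against 13.4 and 15.5 in KO. The other 6 of the 10 had control ranks of 153 to 982 and KO ranks of 17822 to 37686.

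In the controls these 10 regions lost rank by 8 h. The region chr17:13743197-13746205 ranked 35, 264 and 79 in the untreated controls, and by 8 h it had dropped to ranks 4731, 6920 and 5251. Its KO ranks went from 12707 and 13325 to 25871 and 42085 over the same time. The controls at 8 h were also the control libraries with dense hotspots: the median highest density of 15042 hotspots lay at 8.66 to 11.5 for the 6 controls of 0 h and 3 h, 26.7 to 29.4 in the 3 at 8 h, and 25.3 to 31.8 in the 6 KO libraries. The part of library strength in these ranks was not tested. Of the control-only regions 19 (3.02%) lay within 500 kb of the first hotspot of their chromosome, against 0.718% of all union regions and 0.248% of KO-only regions. The longest run, of 7 control-only regions, was chr17:3009888-3079763.

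The libraries at 0 h and 8 h, which had no part in defining the classes, separated in the same direction. At 0 h, with 16572 hotspots per list, KO-only regions of 3 h were in 59.5% ± 0.394 of cases in the KO lists (SD, n = 2) and in 21.4% ± 4.19 in the control lists (SD, n = 3). At 8 h, with 46530 hotspots per list, KO lists held 100% of them, all 1615, in both replicates, and control lists 77.7% ± 2.41 (n = 3). Averaged over both times the KO lists held 30.2 percentage points more (exact two-sided permutation of genotype within each time, p = 0.01 from 100 arrangements, the smallest they allow, and 0.015 after Benjamini-Hochberg adjustment over 3 tests). All 4 KO lists were above every control list of their time. Control-only regions were in 27.9% ± 0.449 of cases in KO (n = 2) and 59.6% ± 2.34 in controls (n = 3) at 0 h, and in 77.1% ± 0.337 and 95.5% ± 1.70 at 8 h. The KO lists thus differed by -25.01 points (exact permutation p = 0.01, adjusted 0.015). Regions in all 5 lists at 3 h, given as the baseline, were also found more often in KO, at 94.3% against 90.5% at 0 h and nearly all in both groups at 8 h, an average of 1.92 points (exact permutation p = 0.04, adjusted 0.04). Libraries of one genotype and replicate number may share a source, and the test treats them as independent, whereas 5 whole series would allow no p below 0.1. With any 1 series left out p was 0.056 to 0.0625, the smallest that the remaining libraries allow. With the littermate as the only control, the control-only difference was -4.65 points.

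**Figure D3:**
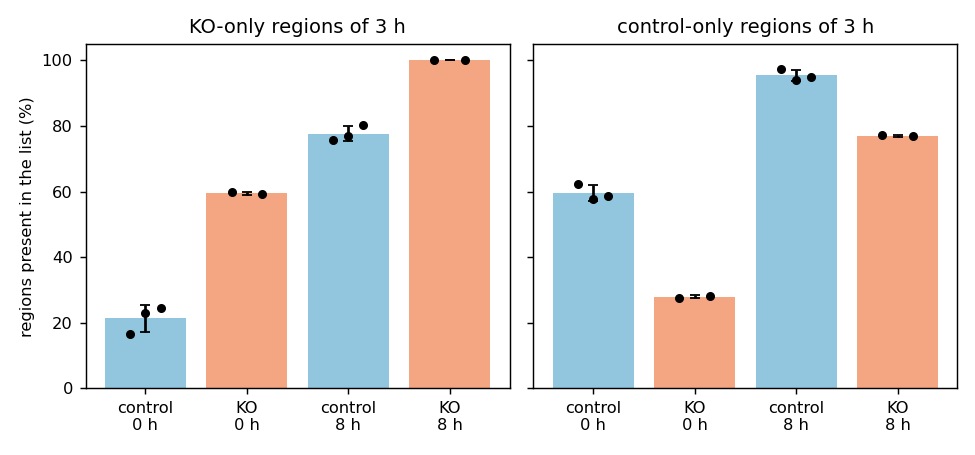
Points give, for each library at 0 h and 8 h, the percentage of the 3 h KO-only regions (left) and control-only regions (right) present in its list, with bars for group means and error bars for the SD (n = 2 KO, n = 3 control). KO libraries are above all controls at left and below all controls at right, at both times.

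Most class regions did not keep the full pattern at the other times. The same shares were not computed over all union regions, so how they compare with those of any region is not shown. Of the KO-only regions 385 (23.8%) were also in both KO lists and no control list at 0 h, 245 (15.2%) at 8 h and 96 (5.94%) at both. In the longer 8 h lists 1140 (70.6%) were in every list of both genotypes. At 0 h 558 KO-only regions (34.6%) were in neither cut KO list, whereas of all KO-only regions 1571 (97.3%) were in both KO lists as deposited at 0 h and 26 (1.61%) in neither. The deposited KO lists of all 3 times held 96.0% of all union regions and 97.3% of KO-only regions. Presence in the deposited KO lists thus does not set KO-only regions apart. Of the control-only regions 141 (22.4%) were control-only at 0 h as well, 76 (12.1%) at 8 h and 33 (5.24%) at both.

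Among regions present in all 5 lists, most of the 8636 did not pass the test of rank, and the balance between directions depended on the libraries and the scale. Ranks were turned into normal scores in each library, in which 1 unit is 1 standard deviation over the shared regions, and compared with limma. After Benjamini-Hochberg adjustment at 0.05, 154 regions ranked higher in KO (1.78% of those tested) and 287 ranked lower (3.32%). The higher regions had a median difference of 1.58 score units, and the lower ones of -1.72, against 0.07 over all tested regions. Both KO libraries ranked above every control at 1950 regions (22.6%) and below every control at 1552 (18.0%), which includes all 154 higher and 286 of the 287 lower regions. Direction here is by rank: on the deposited density scale 237 of the 287 lower regions (82.6%) had a higher density in KO, by a median log2 difference of 0.32, against the general shift of 1.44. The same limma test on log2 density as deposited, chosen after seeing the data, called 8198 regions higher in KO and 23 lower. The count of higher regions fell to 2 without KO replicate 1 and 11 without replicate 2, where a single KO library is assumed to vary like the controls, and that of lower regions to 70 and 202. Without WT replicate 1 and with lists of 19384 hotspots, 85 ranked higher (0.729% of those tested) and 94 lower (0.806%). Without WT replicate 2 it was 251 (2.79%) and 463 (5.15%). Without the littermate it was 194 (2.03%) and 188 (1.97%), where higher calls outnumber lower ones.

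**Figure D4:**
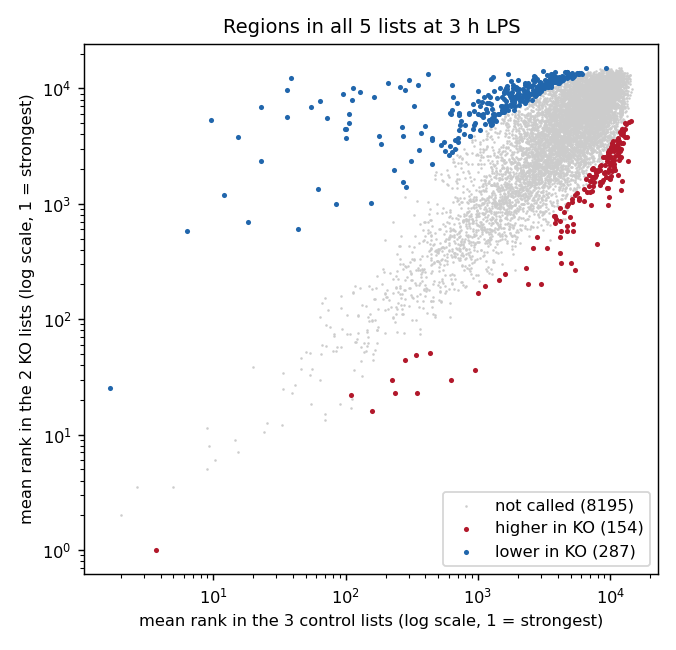
Each point is a region in all 5 lists, placed by its mean rank in the 3 control lists (horizontal) and the 2 KO lists (vertical), both on log axes with 1 the strongest, and coloured by the limma call. The 154 higher regions have a median mean rank of 1749.5 in KO and 8542.2 in controls, and the 287 lower ones of 8748 and 1766.

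The 8 largest shifts upward had ranks of 1072 to 6244 in KO and of 7120 to 15018 in the controls. The first, chr4:104940714-104942240, had ranks of 1449 and 1722 in KO, 13147 and 9075 in WT and 14812 in the littermate, with densities of 54.3 and 51.1 in KO and 5.51, 10.3 and 6.32 in the controls. Its score was higher in KO by 2.76 ± 0.50 (SE, adjusted p = 0.0038 by limma). At 0 h no cut list of either genotype held it, and at 8 h it ranked 948 and 1349 in KO and 14387 to 25994 in the controls. The region was thus outside the 16572 strongest hotspots of every library before LPS and inside the strongest 15042 of all 5 at 3 h, with the better ranks in KO. Its littermate density was that of the last hotspot kept, so only the order of ties kept it in that list.

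The region chr8:35751530-35753658 had KO ranks of 2430 and 2296 and control ranks of 12276, 14835 and 13553 (difference 2.75 ± 0.50, SE, adjusted p = 0.0036 by limma). At 0 h its littermate rank was 3839, near the KO ranks of 3266 and 2334, while the WT ranks were 13675 and 8307, so the 3 controls were apart from each other before LPS. The region chr10:22073024-22074710 ranked 1543 and 1072 in KO and 11183 to 13389 in the controls (2.63 ± 0.42, SE, adjusted p = 0.0011 by limma). Of the other 5, chr3:148881884-148884570, chr7:71055046-71057682, chr13:106088647-106091329, chr6:48789786-48793131 and chr6:108255657-108258114, all had differences of 2.33 to 2.56 with adjusted p of 0.011 to 0.024 by limma. The first of the pair on chromosome 6 was the only one of these 8 whose groups overlapped at 8 h, with ranks of 16238 and 10249 in KO and of 13712 to 27397 in the controls. Those on chromosomes 3, 7, 8 and 13 were in every cut list at 0 h and 8 h, and their groups overlapped at neither time. Of these 8 regions, 7 missed the threshold without KO replicate 1 (all but the one on chromosome 10) and 5 without KO replicate 2. Those on chromosomes 3 and 7 and the second on chromosome 6 missed it without WT replicate 1, and the one on chromosome 3 also without WT replicate 2. In WT replicate 2, those on chromosomes 3 and 8 and the pair on chromosome 6 had the density of the last hotspot kept, 7.15. The pair also had that of the last one kept in the littermate, 6.32. Only the order of ties kept these regions in those lists and set their ranks there.

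The 8 largest shifts downward were larger and started from the top of the control lists. At chr2:27351048-27358469 the controls ranked 34, 65 and 16 with densities of 56.6, 57.6 and 65.5, and KO ranked 13376 and 11283 with densities of 18.2 and 19.8 (difference -4.32 ± 0.29, SE, adjusted p = 2.67e-08 by limma). The controls were high and the KO libraries low at 0 h too, with control ranks of 16, 16 and 21 and KO ranks of 6245 and 6574. At 8 h the control ranks were 3738, 3896 and 3272, and those of KO 14333 and 18788, so the control libraries moved toward KO and the groups still did not overlap. The region chr5:105356197-105357928 had control ranks of 24, 62 and 22 and KO ranks of 11748 and 7430 (-3.68 ± 0.28, SE, adjusted p = 1.31e-07 by limma). At chr17:36621309-36622076 the controls ranked 22, 36 and 11 and KO 6071 and 7781.

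Of the remaining 5, chr9:13422355-13423385, chr13:120276195-120278251 and chr18:82390203-82391161 had control ranks of 61 to 701 and KO ranks of 9353 to 14726. The other 2, chr11:3049474-3050439 and chr11:3078675-3080125, lie near the first hotspot of chromosome 11, and their control ranks were 26 to 357 and KO ranks 6798 to 13391. In all 8 the density itself was lower in both KO libraries than in every control, which held for 32 of the 287 lower regions. Part of this pattern was concentrated in position: 25 of the 287 lower regions (8.71%) and 0 of the 154 higher regions lay within 500 kb of the first hotspot of their chromosome, against 0.718% of all tested regions. All 8 stayed past the threshold when any 1 library was left out. On chromosome 11, 19 of the 22 tested regions below position 3100008 ranked lower in KO.

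**Figure D5:**
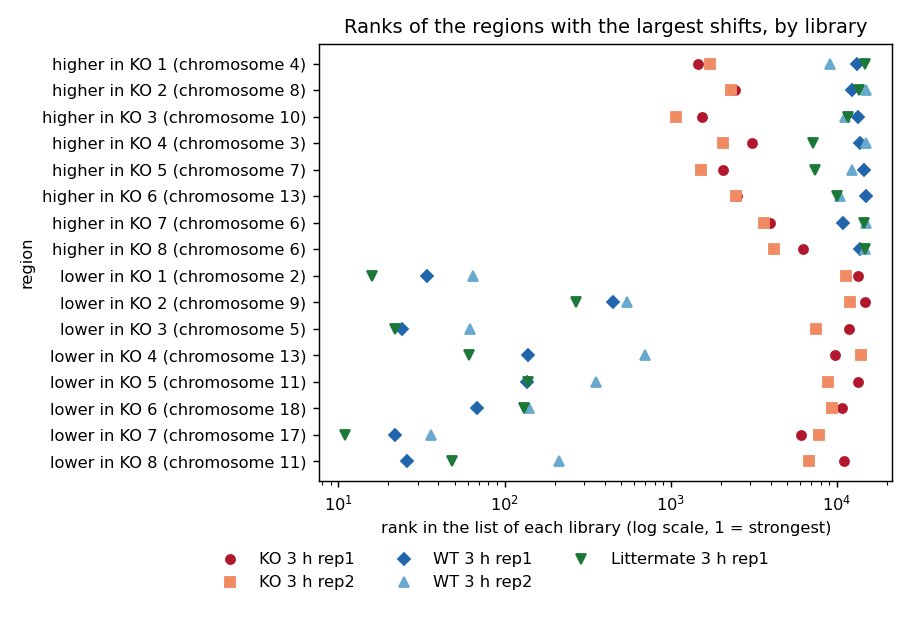
Each row is one of the 16 regions with the largest rank shifts, and symbols give its rank in each of the 5 libraries on a log axis with 1 the strongest. KO libraries are left of all controls in the upper 8 rows and right of all controls in the lower 8.

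Most shifts were seen at the other times as well. Of the 154 higher regions, 108 were in all 5 cut lists at 0 h and 96 of these (88.9%) had the higher mean score in KO, and at 8 h it was 152 of 153 (99.3%). Of the 287 lower regions, 264 of 268 (98.5%) were lower in KO at 0 h and 278 of 285 (97.5%) at 8 h. Among regions not called at 3 h, KO was higher at 59.7% and 53.0%. The median difference of the higher regions was 0.73 at 0 h and 1.39 at 8 h, and that of the lower regions -1.71 and -1.17.

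Whether the KO-control difference at 3 h differed from that at another time was tested over the 6531 regions present in all 15 equally long lists. Against 0 h the difference changed at 0 regions (0%) after adjustment with limma, 400 had an unadjusted p under 0.05, and 29 passed when the correlation within a series was estimated. Against 8 h it changed at 14 regions (0.214%), all of them more negative at 3 h, and at 7 without the littermate. Of these, 12 lie on chromosome 11 below position 3100008, 1 on chromosome 17 and 1 on chromosome 18. The first, chr11:3038242-3048892, ranked 12, 26 and 17 in the controls at 3 h and 769 and 611 in KO. At 8 h it ranked 3418, 2544 and 3763 in the controls and 828 and 722 in KO (change -2.63 ± 0.27, SE, adjusted p = 2.34e-05 by limma). Control ranks fell far between 3 h and 8 h at this region, and KO ranks stayed close to their 3 h values. The other 4 with the smallest p, chr11:3063581-3069245, chr11:3026827-3027781, chr11:3090942-3097144 and chr11:3085832-3090775, also changed rank mainly in the controls. These 14 regions moved together with the density of the control libraries between 3 h and 8 h given above, and its part was not tested.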

How the data were processed

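DNase-seq hotspot lists of the 5 libraries at 3 h of LPS were analysed, with the 10 libraries at 0 h and 8 h as further data. The labels' protocols describe DNase I digestion of nuclei, selection of 100 to 500 bp fragments and single-end sequencing. Build mm9 and CASAVA are named per the submitters' processing notes, and the sources used here do not give the aligner, hotspot caller or threshold. For every hotspot the authors gave, per the file headers, a highest and mean tag density, a signal, with a Z-score (a score) and a p-value, deposited as one list per library. Read counts are not in the lists and depth is unknown, so no interval for it is given. Highest densities are whole multiples of a step of 0.2505 to 0.4515 (within 0.05 steps).

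Lists were ranked by highest density, ties by mean density and position. Rank scores over regions in all lists were compared with limma 3.58.1 (R 4.3.3, trend, empirical Bayes). The scripts were tested on simulated data. Groups came from the labels. The regions named are the 10 of each class with the best mean rank, the 8 largest called shifts per direction with no overlap, and 5 per called difference between times. The comparison, members and lists were chosen with earlier results of these data known. Planned gene lists, marker lists, promoters and motifs need an mm9 annotation and were not used here.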

Additional observations from a re-analysis of the deposited data

Results flagged for a closer look

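The difference between KO and controls was not the same at 3 h and 8 h at 14 regions, by a limma test of the difference between times. Of these, 13 were below the controls by rank at 3 h and 8 at 8 h, with a median difference of -2.68 at 3 h, -0.55 at 8 h and -2.37 at 0 h. Within 500 kb of the first hotspot of a chromosome lay 13 of the 14.

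Chromosome X, which the comparison leaves out, went the other way from chromosomes 1 to 19. With 15584 hotspots per list, 15.3% of its 580 union regions were in every control list and no KO list at 3 h, and 1.90% were in both KO lists and no control list, against 2.88% and 7.84% on chromosomes 1 to 19. Over all 15 libraries with lists of equal length, 1.14% to 1.37% of hotspots in KO and 1.27% to 3.48% in controls were on X. At each of the 3 times both KO libraries were below every control, at 1.30% and 1.37% against 1.73% to 2.27% at 0 h, 1.19% and 1.21% against 1.81% to 3.48% at 3 h, and 1.14% and 1.19% against 1.27% to 1.64% at 8 h, and the ranges overlapped only across times. No p is given, because the 15 libraries form 5 series and those of 3 h drew attention to X. The highest value, 3.48%, was that of WT replicate 1 at 3 h, the list used whole. In the deposited lists at 3 h the X share was 3.46% and 3.06% in WT, 4.01% in the littermate and 3.73% and 3.97% in KO. Y hotspots numbered 75 to 133 in each of the 15 libraries. The sex of the animals is not given in the sources used here.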

How the results depend on the processing

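Counts moved with list length, region definition and the libraries used. Percentages here are of the union regions, or of the regions tested for rank, under each setting. With lists of 0.5 times the length there were 900 KO-only regions (7.93%, against 7.52% in the main setting). There, 27 ranked higher (0.679%) and 76 lower (1.91%) in KO. With lists as deposited there were 45029 KO-only (28.2%) and 51 control-only regions (0.0319%). Requiring 50% of a region to be covered gave 7538 KO-only regions (35.1%), 25 higher (1.71%) and 63 lower (4.30%). For 500 bp bins these were 25791 (34.9%), 268 (1.97%) and 454 (3.34%). With the littermate as the only control, which also lengthened the lists to 50187 hotspots, there were 18320 KO-only and 17815 control-only regions, 5079 higher and 4494 lower. There the spread comes from the KO pair alone, so these calls have no check on the controls. As shares of union regions the 2 classes were 25.5% and 24.8% in that setting. Hotspots set to 600 bp, chosen after seeing the data, gave 1502 control-only regions (6.31%). Ranking by Z-score gave 241 higher (2.72%), and ranking by mean density 100 higher (1.17%) and 178 lower (2.09%). Limma without trend gave 38 (0.440%) and 70 (0.811%). Log2 density as deposited, chosen after seeing the data, gave 8198 (94.9%) and 23 (0.266%). The cause of these changes was not tested.

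Leaving out each library in turn gave 2069 to 2725 KO-only and 836 to 1209 control-only regions, 2 to 251 higher and 70 to 463 lower. The highest count of lower regions, 463, and of higher regions, 251, came without WT replicate 2. A class needs fewer lists when one is left out, and without WT replicate 1 the lists grew to 19384 hotspots.

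The replicate block, with the littermate left out, gave 324 higher and 406 lower, against 194 and 188 for the same 4 libraries without it. The WT and KO differences between replicates 1 and 2 had r = -0.17 over 9542 regions, and with crossed numbers, chosen after seeing the data, 708 were higher and 746 lower. The numbers are not known to pair the samples.

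The difference between times was called at 29 regions against 0 h and 32 against 8 h with the correlation within series estimated, and at 4087 and 1500 with the littermate as the only control, again with longer lists and the spread of the KO pairs alone. Against 8 h it was 26 with quantile-normalized log2 density, 91 with lists as deposited and 7 without the littermate. The share of KO-only regions in the other lists differed by 33.7 points with the littermate only (exact permutation p = 0.111, the smallest allowed) and by 27.3 to 29.6 with 1 series left out. For control-only regions these were -4.65 and -24.2 to -18.3. No single value changed direction, but the balance of calls did. Higher calls outnumbered lower ones without the littermate (194 against 188), with the littermate only and on log2 density as deposited. The difference against 8 h was negative in all 14 regions, and with the littermate only it was positive in 861 and negative in 639. Of 296 alternative values for the 16 named rank shifts, 271 stayed past the threshold and 25 did not, all in the same direction. A setting that did not test a region gave no value for it, and such cases are not among the 296. None of the 16 had a value with the lists cut shorter than in the main setting. Only 7 had one with 50% of the region covered, and 10 with 500 bp bins. For the 10 named regions of each class, 44 alternative values put a region outside its class. With lists as deposited, only number 2 by mean rank of the control-only regions stayed, and only numbers 5 and 8 of the KO-only regions. Ranked by Z-score, control-only numbers 1, 4, 8, 9 and 10 left their class, and no KO-only region did. Without WT replicate 1, KO-only numbers 3 and 10 and control-only numbers 1, 4 and 10 left. Sequencing depth is unknown, and the high Z-scores at which the WT lists end limit what absence from them shows.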
